A study of Ostreococcus tauri with 84 samples.

Results

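The replication-time module comprised 99 of the 7668 genes of *Ostreococcus tauri*. Members were chosen from the deposited expression values in long-day (LD) and short-day (SD) cultures. The mean over the 3 samples of each time point had to be highest at ZT12 under LD and at ZT8 under SD. The highest mean had to be at least 20 FPKM, and at least 5 times the lowest mean plus 1 FPKM, in both photoperiods. FPKM are read counts normalised to transcript length and to the mapped reads of the library. Zeitgeber time (ZT) counts the hours since lights on, so ZT8 was sampled as the lights went off under SD, and ZT12 fell in the light under LD. The LD and SD values thus chose the genes and are given below as a description with no test.

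Strain RCC4221 of this unicellular green alga was grown in continuous column cultures under SD (8 h light and 16 h dark) or LD (16 h light and 8 h dark). From each photoperiod, cultures passed to continuous light (LL after SD, LL after LD) or to continuous darkness (DD after SD, DD after LD). No samples were taken on the first day of constant conditions. In LL and DD, ZT here counts the hours since subjective dawn, which the study calls circadian time. RNA was sequenced every 4 h at 6 time points, from 3 samples per time point under SD and LD and from 2 in each free-running regime, 84 libraries in all. SD and LD cultures also differed in dilution rate, so photoperiod and culture cannot be told apart. Sampling ran over successive days, so the numbered samples of a regime may be days of 1 culture. The p-values measure only the spread between these samples, and they can be too small where libraries of 1 culture are not independent.

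DNA replication begins when the MCM helicase, loaded at origins by the origin recognition complex, unwinds the DNA. Primase and DNA polymerase alpha then prime both strands, the sliding clamp PCNA tethers the elongating polymerases, and replication protein A covers the single strands. New DNA also calls for deoxyribonucleotides and for histones with their chaperones. *O. tauri* has a compact genome, and its divisions are timed to a window of the day by light and by a circadian clock in which TOC1 is the evening component.

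Only part of the module was made of known replication genes. Functional lists of 164 genes were drawn up from the cell cycle table of the study and from annotation words, and 23 members stood in them. Another 53 members carried an annotation outside the lists, and 23 had none. The 2 replication lists (origins with helicase, and replication fork) held 51 genes, of which 34 were highest at LD ZT12 and SD ZT8, but 13 were members. Of the 38 listed replication genes outside the module, 37 missed the ratio of 5 in at least 1 photoperiod, and 17 of them missed nothing else. ORC1, a subunit of the origin recognition complex, had ratios of 1.95 under SD and 7.89 under LD. CDC45, a partner of the MCM helicase, had ratios of 4.48 under SD and 21.6 under LD. CDC6, which loads MCM, was excluded by level alone, with a highest SD mean of 19.5 FPKM.

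The name of the module therefore gives a time of day and not a function shared by its genes. Without the ratio and the level, 594 genes were highest at both times. Just inside the level threshold were ostta10g01630, ostta10g02490 and ostta01g06280, with 22.3, 22.5 and 25.5 FPKM as the lower of the 2 highest means. Just outside were ostta05g04240 with 18.7 FPKM, APC6 with 19.0 FPKM and CDC6. Near the ratio threshold, ostta16g00040, ostta10g03530 and ostta08g04200 had 5.01, 5.02 and 5.10 as their lower ratio, and ostta04g00830, APC3 and ostta15g00830 had 4.92, 4.93 and 4.93.

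Libraries were uneven in quality at the low end. The tables give no read totals, so precision was read from the samples. Genes listed at 0 numbered 251 to 1007 in the LD libraries of sample 3 and 984 in sample 3 of SD at ZT4, against 42 to 357 in the other 77 libraries. Member values at 0 were most frequent in LD sample 3, with 62, and in sample 7 of DD after SD, with 35. Values near 0 in these libraries are therefore uncertain, as with PCNA, listed at 0 in LD sample 3 at ZT0. Without sample 3 the rule gave 78 genes, 74 of them members. Without sample 1, whose module median at SD ZT8 was 61.5 FPKM against 96.3 and 94.0 FPKM in samples 2 and 3, it gave 150 genes, 94 of them members.

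Under both photoperiods the module went through a steep daily wave. Its median over members was between 8.79 and 96.3 FPKM in SD libraries and between 2.26 and 116 FPKM in LD libraries. The medians over all genes lay between 26.9 and 48.7 FPKM in SD and between 27.8 and 49.2 FPKM in LD. The 99 genes made up 0.173% to 2.39% of the summed FPKM of SD libraries and 0.0944% to 2.75% of that of LD libraries. In these bulk cultures, fewer cells in a stage and less transcript per cell cannot be told apart.

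**Figure D1:**
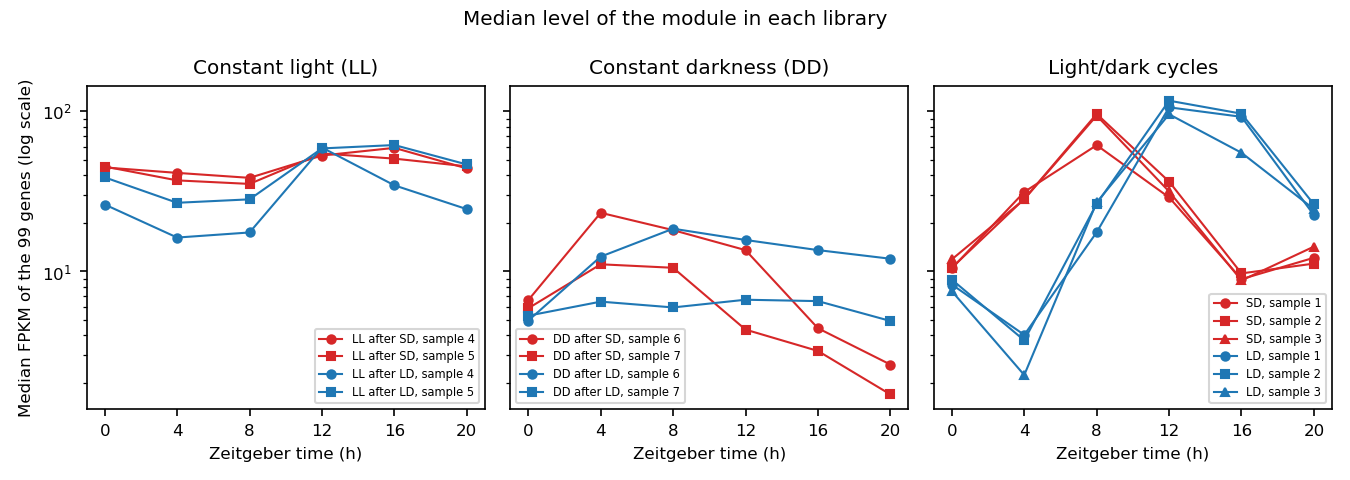
Median FPKM of the 99 genes (log scale) against zeitgeber time in each library, in continuous light, in continuous darkness and under light/dark cycles, with SD or SD history in red and LD or LD history in blue. LL libraries stayed between 16.3 and 61.6 FPKM and DD libraries between 1.71 and 23.3 FPKM, while LD libraries reached 116 FPKM.

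The wave was shallower under SD. The ratio of the highest mean to the lowest mean plus 1 had a median of 10.1 under SD and 26.9 under LD, against 2.11 and 3.05 over all genes. It was larger under LD in 92 of 99 members, and the median over all genes was larger under LD as well. Many LD troughs were low, with 34 members at 0 in LD sample 3 at ZT4, so LD ratios are uncertain. Shares of all genes were not counted for the ratios or the peaks, and the study reports a general loss of amplitude under SD. The SD peak means include the low sample 1. At SD ZT8 the module median was 61.5, 96.3 and 94.0 FPKM in samples 1, 2 and 3. At LD ZT12 it was 106, 116 and 95.8 FPKM. With sample 1 included, peaks were also lower under SD in 86 members, with a median SD peak of 0.775 of the LD peak. HUS1, a subunit of a checkpoint clamp, had the highest such ratio, 1.39, and the Erv1/Alr family gene ostta12g01950 the lowest, 0.377.

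The shape around the peak differed too. Under SD, ZT4 stood at a median of 33.6% and ZT12 at 39.8% of the ZT8 mean, and ZT4 was above ZT12 in 43 members. Under LD, ZT8 stood at 22.3% and ZT16 at 70.7% of the ZT12 mean, and ZT16 was above ZT8 in 97 members. Under LD the step into ZT12 was thus larger than the step from ZT12 to ZT16. By ZT20 the library medians of the module were 22.5 to 26.3 FPKM, against 17.6 to 27.0 FPKM at ZT8. With samples every 4 h, the steepness of rise and decline cannot be ranked. The lowest SD mean fell at ZT16 in 46 members and at ZT0 in 41. The lowest LD mean fell at ZT4 in 78 members and at ZT0 in 20.

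Among the fork genes, PCNA (ostta06g02890) was the most abundant. It had 631, 1008 and 821 FPKM at ZT8 under SD, against 1250, 1254 and 1301 FPKM at ZT12 under LD. At their lowest time points it had 86.3, 104 and 45.7 FPKM under SD (ZT16) and 6.95, 21.2 and 16.2 FPKM under LD (ZT4). Peak and trough were set apart by the rule that chose the members. All 3 LD peaks lay above all 3 SD peaks.

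The replication protein A subunit ostta13g01140 showed less difference between the photoperiods at its peak. It reached 333, 621 and 650 FPKM under SD and 556, 615 and 524 FPKM under LD, and these ranges overlapped. A second gene with a replication factor A C-terminal domain (ostta18g01440) had 191, 395 and 286 FPKM at its SD peak and 560, 523 and 461 FPKM at its LD peak. Its LD ratio of 86.9 was the highest of the 11 fork members, whose LD ratios started at 15.3.

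The priming enzymes formed a group of lower level. The catalytic subunit of DNA polymerase alpha (POLA, ostta08g00710) had 50.2, 82.8 and 53.2 FPKM at SD ZT8, against 98.6, 96.3 and 105 FPKM at LD ZT12, with no overlap. Its partner POLA2 (ostta11g01400) had 48.5, 95.1 and 82.8 FPKM, against 99.8, 109 and 71.6 FPKM. The primase subunit PRIM1 (ostta13g02040) had 199, 259 and 213 FPKM, against 262, 265 and 219 FPKM. Peaks of POLA2 and PRIM1 therefore overlapped between SD and LD. The fork members also held the primase subunit PRIM2 (ostta11g00940), the epsilon polymerase subunit POLEA, the XPG family nuclease gene, and both subunits of topoisomerase VI (TOP6A, TOP6B). Highest means of the 11 fork members spanned 28.3 to 820 FPKM under SD and 48.8 to 1268 FPKM under LD.

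Of the origin and helicase list, 2 of 23 genes were members, both subunits of the MCM helicase. MCM6 (ostta01g02580) had 79.1, 96.3 and 74.0 FPKM at SD ZT8 and 96.7, 104 and 74.3 FPKM at LD ZT12. MCM4 (ostta14g01050) had 49.2, 67.3 and 47.8 FPKM, against 94.3, 78.5 and 79.0 FPKM. The photoperiods overlapped at the peak for MCM6 and not for MCM4.

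Nucleotide supply added 3 of 10 listed genes. RNR1 (ostta01g00090), the large subunit of ribonucleotide reductase, which makes deoxyribonucleotides, had 375, 630 and 367 FPKM at SD ZT8 and 584, 578 and 562 FPKM at LD ZT12. At LD ZT4 it was down to 6.58, 8.01 and 5.52 FPKM. Thymidylate synthase (TS, ostta01g05920), which makes thymidylate for DNA, peaked at 206, 360 and 204 FPKM under SD and 289, 295 and 265 FPKM under LD. The third was a nucleoside diphosphate kinase gene (ostta11g02505) of lower level, with highest means of 25.7 FPKM under SD and 35.6 FPKM under LD.

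Pyrimidine synthesis was represented outside the lists. Aspartate carbamoyltransferase (ATCase, ostta15g00060), which commits carbamoyl phosphate to pyrimidines, had 161, 290 and 249 FPKM at SD ZT8 and 314, 369 and 393 FPKM at LD ZT12. Orotidine 5′-phosphate decarboxylase (OMPDC, ostta03g01160), which forms UMP, and cytidine deaminase (CDA, ostta17g00410) were members as well. OMPDC was less sharply timed, since its SD values at ZT8, 73.4, 162 and 103 FPKM, overlapped those at ZT12, 103, 112 and 112 FPKM.

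Chromatin genes were few among the listed ones. ASF1 (ostta04g02380), a chaperone that hands histones H3 and H4 to assembly factors, was the only member of 9 chromatin assembly genes. It had 411, 707 and 705 FPKM at SD ZT8, against 1124, 1068 and 969 FPKM at LD ZT12. Of 13 histone genes, 1 was a member (ostta01g03890), whereas 10 were highest at SD ZT12 and 6 at LD ZT16. Most histone transcripts were thus highest 4 h after the module under SD. The cohesin and condensin list gave 2 of 16 genes, the kleisin RAD21 (ostta06g02960) and an SMC gene (ostta03g03780). The repair and checkpoint list gave 2 of 26, a BRCA1-like gene (ostta05g00310) and HUS1. The cell cycle list gave 1 of 25, a CPP family gene (ostta20g00800), and the spindle and organelle division list 0 of 14.

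The most abundant members stood outside these lists. An HMG box gene (ostta06g00100), of a family of proteins that bend DNA, had 3814, 4692 and 4559.5 FPKM at SD ZT8 and 4027, 4453 and 5178 FPKM at LD ZT12. A second HMG box gene (ostta05g03120) had 858, 1780 and 1668 FPKM, against 2165, 2204 and 1889 FPKM. Only the second was separated between the photoperiods at its peak.

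TOC1 (ostta13g01820) was next in level outside the lists. It had 871, 1131 and 1042 FPKM at SD ZT8 and 951, 930 and 886 FPKM at LD ZT12, which overlapped. Its LD ratio of 161 was the highest of all members. From ZT8 to ZT12 under SD it fell to 31.9, 25.8 and 70.5 FPKM, while at ZT4 it already stood at 658, 695 and 752 FPKM. TOC1 and its neighbour ostta13g01815 were 1 of 2 pairs of adjacent members, and ostta06g00230 with ostta06g00240 was the other.

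**Figure D2:**
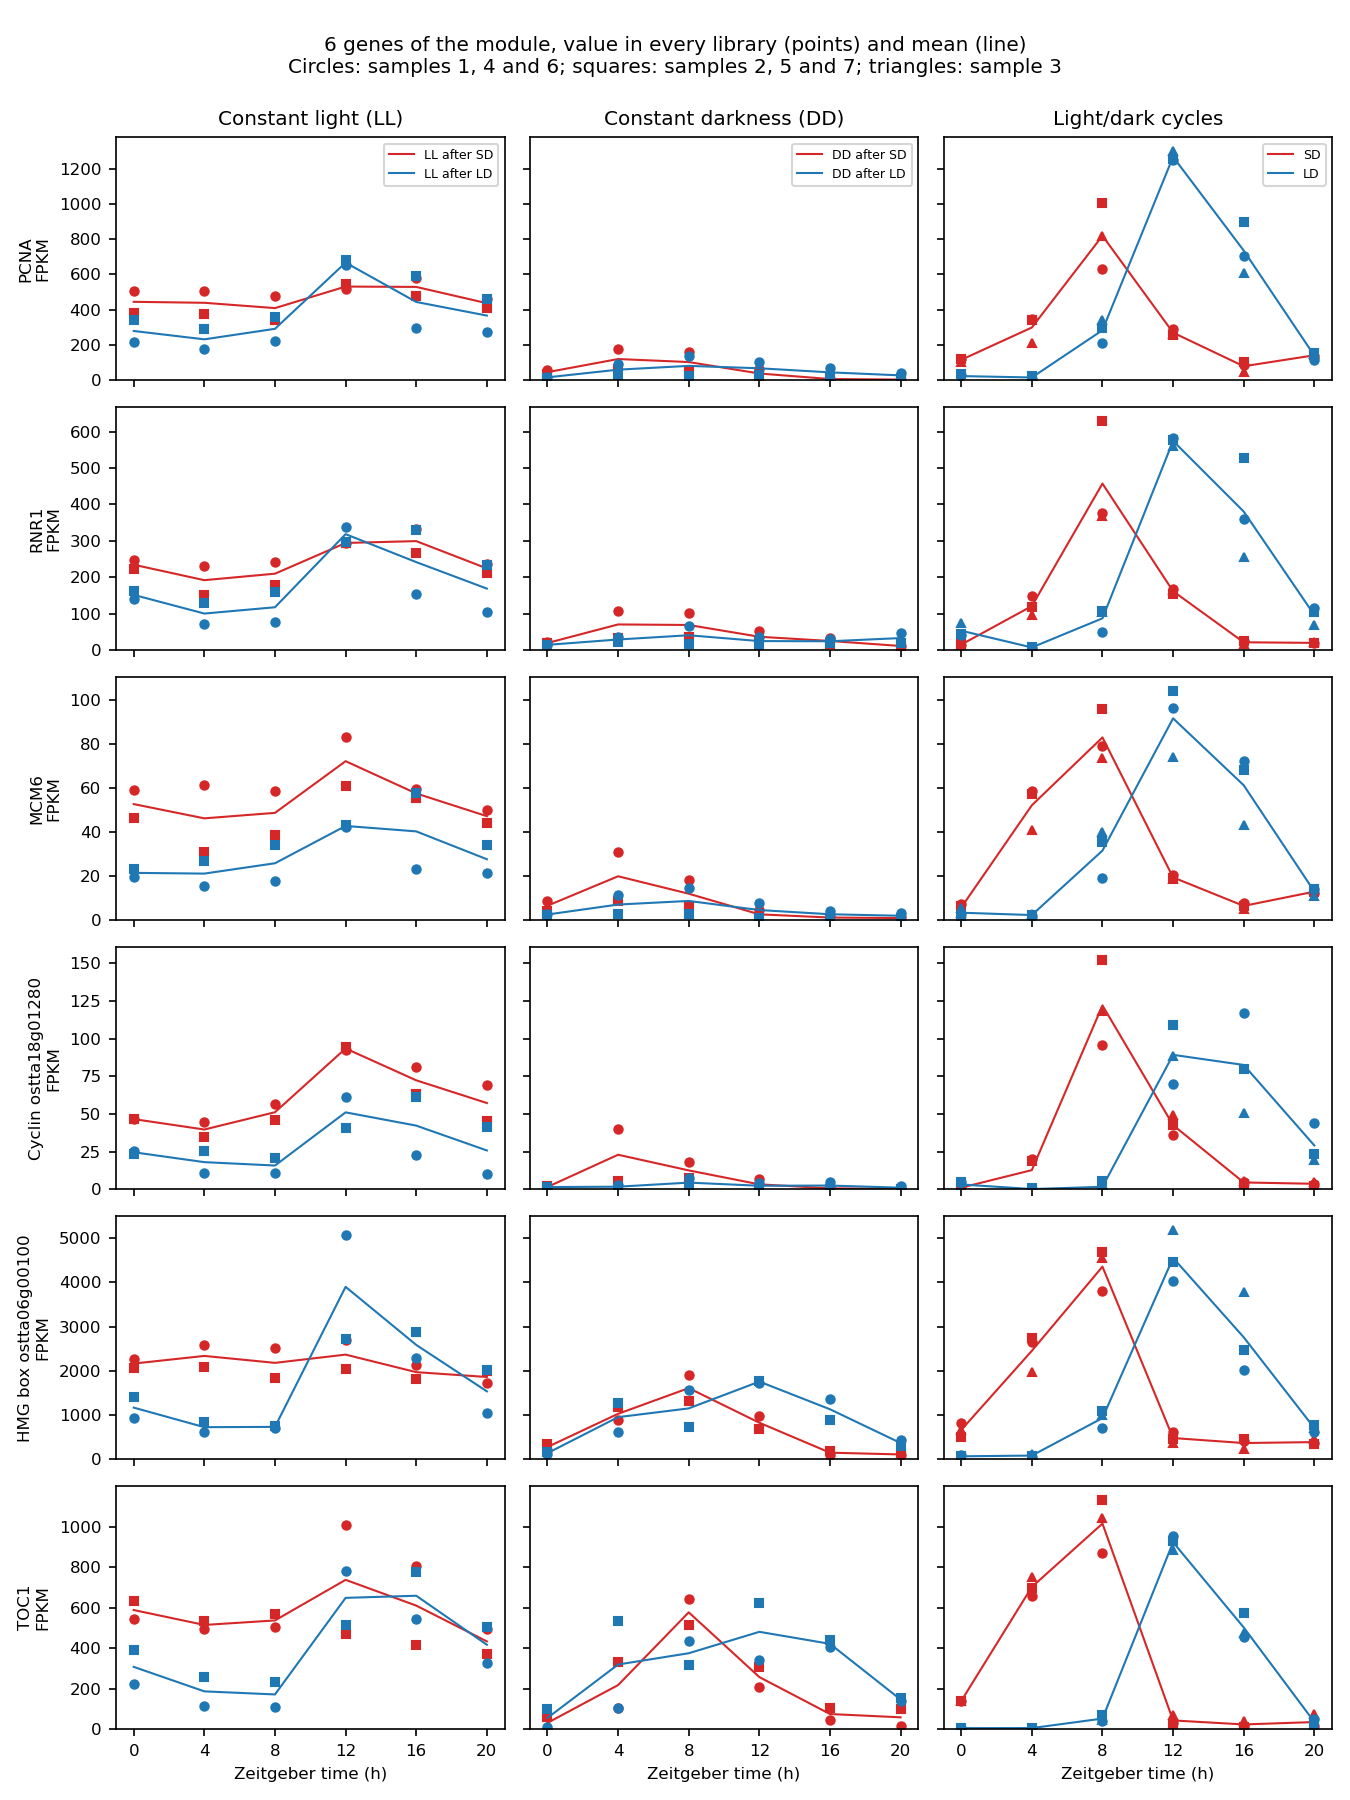
FPKM of PCNA, RNR1, MCM6, the cyclin gene ostta18g01280, the HMG box gene ostta06g00100 and TOC1 against zeitgeber time, in continuous light, continuous darkness and light/dark cycles, with a point for each library and a line through the means (SD history red, LD history blue). PCNA in DD stayed at or below 178 FPKM, while TOC1 in DD reached 641 FPKM.

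The other abundant annotated members were a ferritin-like gene (ostta08g00560), an AMP-dependent synthetase (ostta16g00040), a P-loop nucleotide hydrolase (ostta06g03280), a ubiquitin-conjugating enzyme (ostta05g04930), an MT-A70 family RNA methyltransferase (ostta11g01180) and a RING/PHD zinc finger gene (ostta07g02550). Their SD peak means were 243 to 496 FPKM and their LD peak means 342 to 591 FPKM. Sorted by annotation once membership was known, the 53 genes outside the lists included 7 for DNA and chromatin binding, 10 for signalling and protein turnover, 9 for metabolism and 4 for RNA. A cyclin gene (ostta18g01280), the kinetochore subunit Spc25 and a HORMA domain gene (ostta14g01880) were also among them.

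In continuous light the libraries did not enter the choice of members, and the question there was whether the wave went on without dark periods. The amplitude in LL was low. The rule chose genes with low troughs in the cycles, so the LL troughs are given as levels only. The lowest mean stood at a median of 43.0% of the SD peak in LL after SD and at 17.9% of the LD peak in LL after LD. The ratio of highest to lowest mean plus 1 had medians of 1.51 in LL after SD and 2.87 in LL after LD, against 1.34 and 1.61 over all genes.

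In LL after SD, PCNA stayed between 341 and 580 FPKM in all 12 libraries. In LL after LD it had 653 and 681 FPKM at ZT12, against 217 and 340 FPKM at ZT0. The 2 ZT12 libraries after LD were above all others of that regime, while no time point stood out after SD.

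In LL after SD the highest mean fell at ZT12 in 51 members (14.8% of all genes) and at ZT16 in 35 (17.7% of all genes), in profiles of small range. In LL after LD it fell at ZT12 in 87 members (20.0% of all genes) and at ZT16 in 11 (24.1% of all genes). The 24 h cosines fitted to log2(FPKM + 1) peaked at a median of 15.0 h after SD and 15.6 h after LD.

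A limma fit of these cosines tested whether the level at the entrained peak time was higher than 12 h apart from it, with Benjamini-Hochberg adjustment over all genes. In LL after SD (ZT8 minus ZT20), 0 of 99 members passed (0% of 7427 genes tested), and at an unadjusted p below 0.05 there were 0 higher and 7 lower (3.66% of all genes were lower). The median difference was -0.12 on the log2(FPKM + 1) scale, against -0.08 over all genes. In LL after LD (ZT12 minus ZT0), 0 of 99 passed by limma (0.0540% of 7413 genes were called higher), but 37 were higher at an unadjusted p below 0.05, against 5.80% of all genes. The median difference was 0.75, against -0.06 over all genes, and it was positive in 94 members. The difference between the histories was tested in the same way, and 0 members were called in either direction (0% of 7434 genes), with 30 at an unadjusted p below 0.05, all lower after SD, against 7.98% of all genes in either direction. Its median was -0.85 (SD history minus LD history), and the smallest adjusted p was 0.618 (limma). The preset times, ZT8 after SD and ZT12 after LD, lie unequally far from the fitted peaks, 15.0 h and 15.6 h. The value therefore mixes timing with amplitude and does not measure a difference in amplitude.

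A rhythm of any phase was called by limma in 1 member in LL after SD (0.364% of all genes). There 31 members had an unadjusted p below 0.05, against 11.4% of all genes. The member called was the unannotated ostta01g06410. That gene had 37.9 and 50.4 FPKM at ZT12, against 23.1 and 24.3 FPKM at ZT4. In LL after LD, 0 members were called (0% of all genes), although 78 had an unadjusted p below 0.05, against 29.8% of all genes. By functional list, the median of ZT12 minus ZT0 in LL after LD was 1.05 for the 11 fork members, 0.71 for the 2 MCM genes and 0.65 for the 3 nucleotide supply genes.

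With both samples in the fit, the mean level over the 6 LL time points was higher with SD history in a majority of members, but without sample 4 the share was no larger than over all genes. limma called 55 higher in LL after SD than in LL after LD (25.5% of all genes) and 3 lower (18.1% of all genes). The median difference was 0.45 over members, against 0.05 over all genes. The members called higher included 9 of the 11 fork genes, both MCM genes, both repair members and 2 of the 3 nucleotide supply members. These counts moved with sample 4 of LL. In LL after LD the module median was 16.3 to 59.4 FPKM in sample 4, against 26.8 to 61.6 FPKM in sample 5. Without sample 4, 17 members were higher (1336 of 7430 genes in all) and 11 lower (15.2% of all genes), with a median of 0.11. Without sample 5, 55 were higher (16.2% of all genes) and 1 lower (10.9% of all genes), with a median of 0.80.

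Of the members that rose, the unannotated ostta12g02150 changed most, by 1.35 (SE 0.19, limma adjusted p = 7.8e-06), followed by ostta01g06545 with 1.31 (SE 0.20). HUS1 was higher by 1.28 (SE 0.19, limma adjusted p = 1.3e-05). It had 12.5 to 36.1 FPKM in LL after SD, against 3.78 to 23.2 FPKM in LL after LD, and these ranges overlapped. The glycosyl hydrolase gene ostta07g01950 was higher by 1.23 (SE 0.20), and the cyclin gene ostta18g01280 by 1.16 (SE 0.20). The cyclin had 34.6 to 94.8 FPKM in LL after SD, against 10.2 to 61.6 FPKM in LL after LD. All 5 genes were higher with SD history in the mean of every time point.

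The 3 that fell differed in annotation from the replication members. The epimerase/dehydratase gene ostta09g00100 was lower by -1.12 (SE 0.16, limma adjusted p = 8.3e-06), with 20.2 to 49.4 FPKM in LL after SD, against 36.4 to 101 FPKM in LL after LD. The unannotated ostta06g03490 had a difference of -0.45 (SE 0.17) and OMPDC of -0.34 (SE 0.10). PCNA had a difference of 0.41 (SE 0.15, limma adjusted p = 0.035), which was -0.051 without sample 4.

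In continuous darkness the module was low. DD values stand in a table of their own, so levels across the tables are a description. The highest DD mean was a median of 23.5% of the SD peak after SD and 12.6% of the LD peak after LD. It was under 10% of the peak in 5 members after SD and in 38 after LD, and at least 50% in 16 after SD and in 9 after LD. The rule chose genes with high peaks in the cycles, which can lower these percentages. Shares of all genes were not counted for them.

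**Figure D3:**
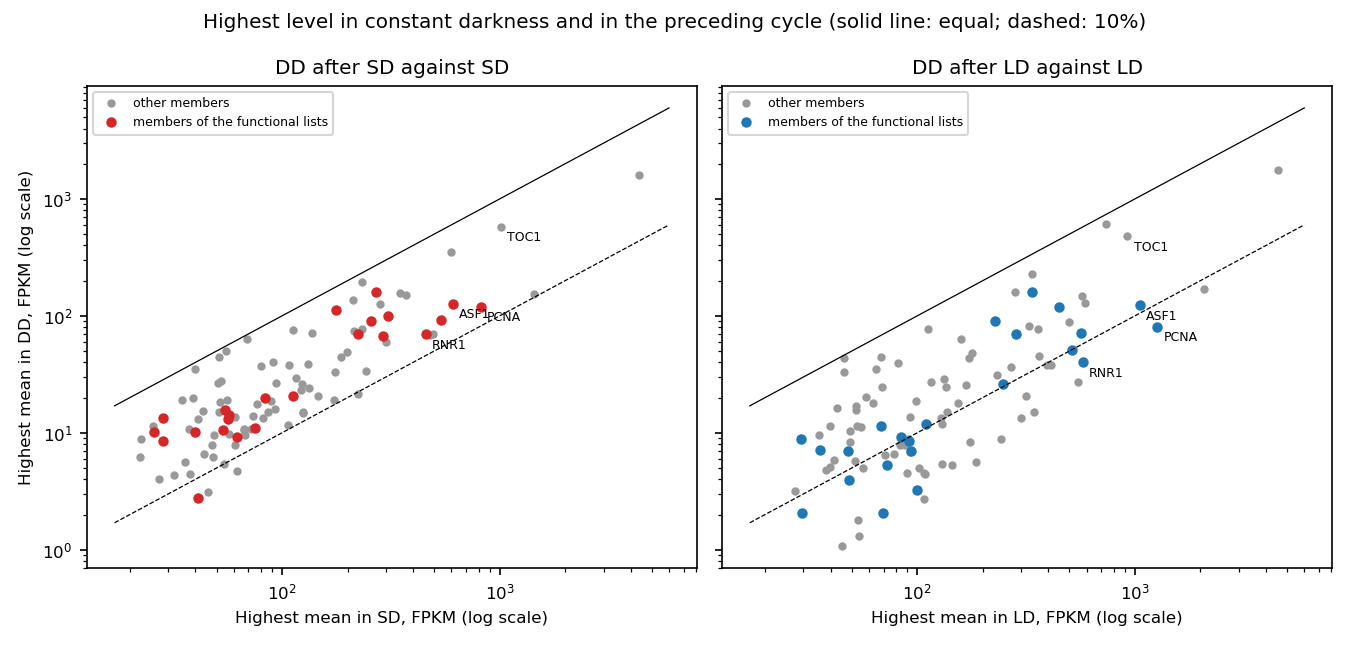
Highest mean FPKM of each member in continuous darkness against its highest mean in the preceding cycle (log scales), for SD history on the left and LD history on the right, with members of the functional lists in colour. PCNA reached 14.6% of its SD peak and 6.37% of its LD peak, whereas TOC1 reached 56.8% and 52.0%.

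Fork genes were low in darkness, at a median of 19.6% of the SD peak in DD after SD and 9.89% of the LD peak in DD after LD. PCNA had 178 and 61.8 FPKM at ZT4 in DD after SD, and 136 and 25.3 FPKM at ZT8 in DD after LD. POLA had 15.9 and 2.51 FPKM at ZT4 in DD after SD, and 5.46 and 0.986 FPKM at ZT8 in DD after LD. In both genes sample 6 was above sample 7 at these times.

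TOC1 and the HMG box gene ostta06g00100 kept more of their level. TOC1 had 641 and 511 FPKM at ZT8 in DD after SD, and 339 and 621 FPKM at ZT12 in DD after LD. The HMG box gene had 1897 and 1321 FPKM at ZT8 in DD after SD, and 1732 and 1781 FPKM at ZT12 in DD after LD. The second HMG box gene, ostta05g03120, had 212 and 50.4 FPKM, and 299.7 and 38.5 FPKM, at the same times. The first HMG box gene stood above the second at the peaks in the cycles as well. Its highest DD mean was 37.0% of its SD peak after SD and 38.6% of its LD peak after LD. For ostta05g03120 these were 10.7% and 8.10%. The unannotated ostta01g01900 reached 86.2% of its SD peak after SD and 93.8% of its LD peak after LD.

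In DD after SD the highest mean mostly came before the entrained time. It fell at ZT4 in 68 members (16.1% of all genes) and at ZT8 in 23 (21.6% of all genes). In DD after LD it fell at ZT12 in 40 members (22.7% of all genes) and at ZT8 in 27 (6.24% of all genes). Fitted cosines peaked at a median of 6.00 h after SD and 10.5 h after LD. The ratio of highest to lowest mean plus 1 had medians of 5.84 in DD after SD and 2.57 in DD after LD, against 2.18 and 1.84 over all genes.

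In DD after SD, limma called 71 of the 98 members tested higher at ZT8 than at ZT20 (31.0% of all genes). The median difference was 2.13, against 0.46 over all genes. Scaling every library to the same upper quartile brought the all-gene median to 0.19 and the all-gene calls to 1736 higher and 962 lower, against 2303 and 604 without scaling. With that scaling 66 members were called. A rhythm of any phase was called by limma in 74 of 98 members (52.5% of all genes).

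**Figure D4:**
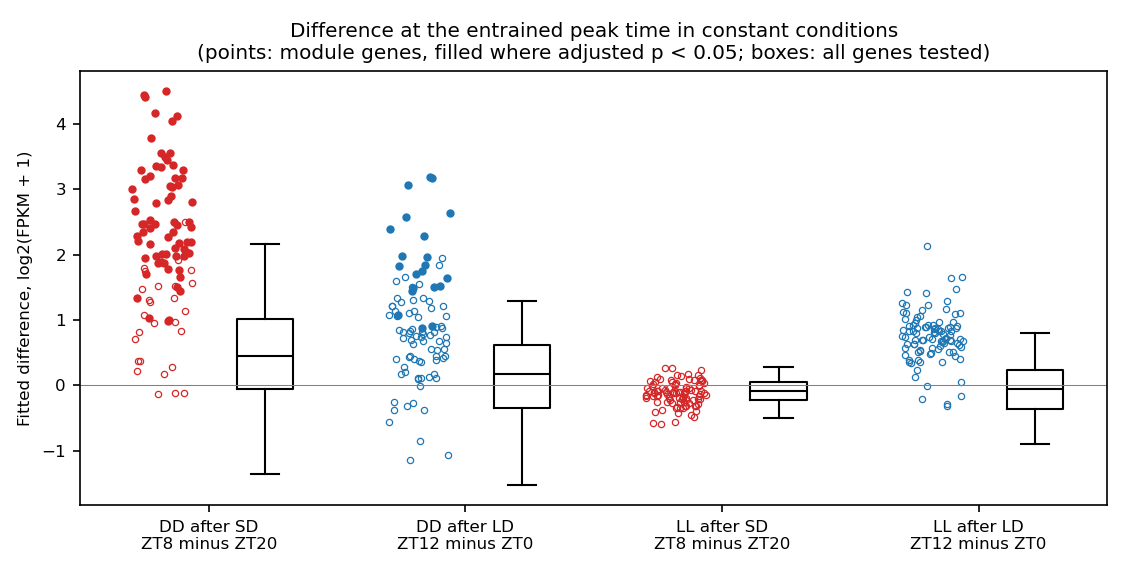
Fitted difference at the entrained peak time on the log2(FPKM + 1) scale in the 4 free-running regimes, with a point for each module gene (filled where limma's adjusted p was below 0.05) and a box for all genes tested (quartiles, with whiskers from the 5th to the 95th percentile). The medians of the module were 2.13 in DD after SD, 0.84 in DD after LD, -0.12 in LL after SD and 0.75 in LL after LD.

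By functional list, the calls after SD took in 8 of 11 fork members, both MCM genes, all 3 nucleotide supply genes, RAD21, the SMC gene, ASF1, the histone gene and the BRCA1-like gene. The CPP family gene of the cell cycle list, with 1.79 (limma adjusted p = 0.0605), was not called, and HUS1 was below the level tested. The unannotated ostta10g01750 had the largest difference, 4.51 (SE 0.53, limma adjusted p = 7.8e-05), with 98.2 and 60.4 FPKM at ZT8, against 2.69 and 4.32 FPKM at ZT20. TOC1 followed with 4.44 (SE 1.04), with 641 and 511 FPKM at ZT8, against 14.9 and 101 FPKM at ZT20. The PHAX domain gene ostta06g00240 had 4.42 (SE 0.62) and the HMG box gene ostta05g03120 had 4.17 (SE 0.94).

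PCNA came next with 4.12 (SE 0.65, limma adjusted p = 0.00040). It had 158 and 47.5 FPKM at ZT8, against 2.62 and 3.35 FPKM at ZT20, and both samples were higher at ZT8. The helicase and nucleotide genes moved the same way. RNR1 had 102 and 34.9 FPKM at ZT8, against 11.7 and 9.85 FPKM at ZT20, a difference of 2.28 with limma. MCM6 had 18.1 and 5.58 FPKM, against 1.24 and 0.247 FPKM, a difference of 2.47. Samples at ZT8 and ZT20 did not overlap in either gene. Among those that missed the threshold were PRIM1 with 1.76 (limma adjusted p = 0.052), POLA2 with 1.07 (limma adjusted p = 0.053) and TOP6B with -0.11. TOP6B had 7.77 and 2.01 FPKM at ZT8, against 6.54 and 2.43 FPKM at ZT20.

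In DD after LD, limma called 21 of the 96 members tested higher at ZT12 than at ZT0 (11.0% of all genes). The median difference was 0.84, against 0.18 over all genes. With a replicate block for the sample numbers, 46 members were higher (26.3% of all genes) and 3 lower (15.4% of all genes). The size of the difference moved with the sample left out, and each such fit kept 1 sample per time point. Without sample 6 the median difference was 0.45 over members, against 0.09 over all genes. Without sample 7 it was 1.32, against 0.26 over all genes. The module median in DD after LD was 4.94 to 18.5 FPKM in sample 6 and 4.91 to 6.66 FPKM in sample 7. A rhythm of any phase was called by limma in 20 of 96 members (31.3% of all genes).

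Of the members in functional lists, RAD21 of the cohesin list was the one called, beside 20 of 74 members outside the lists, and whether the lists differ was not tested. RAD21 had a difference of 0.91 (SE 0.30, limma adjusted p = 0.0495), with 131 and 107 FPKM at ZT12, against 47.8 and 45.8 FPKM at ZT0. Differences of the 11 fork members lay between -1.14 for TOP6B and 1.51 for PCNA. The largest differences were those of ostta10g01750, 3.19 (SE 0.72, limma adjusted p = 0.016), and TOC1, 3.17 (SE 0.81, limma adjusted p = 0.023). TOC1 had 339 and 621 FPKM at ZT12, against 12.1 and 98.0 FPKM at ZT0. The HMG box gene ostta06g00100 had 3.08 (SE 0.53), with 1732 and 1781 FPKM at ZT12, against 116 and 162 FPKM at ZT0. The unannotated ostta10g02730 and ostta08g03420 had 2.64 (SE 0.66) and 2.57 (SE 0.48). PCNA had 104 and 30.2 FPKM at ZT12, against 19.3 and 11.8 FPKM at ZT0 (SE 0.75, limma adjusted p = 0.16).

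The difference between the DD histories was itself tested. limma called 0 of 98 members in either direction (0% of 7424 genes), with 35 higher after SD at an unadjusted p below 0.05, against 8.00% of all genes. With the replicate block 0 were called, and 56 were higher at an unadjusted p below 0.05 (14.9% of all genes). The median was 1.28 (SD history minus LD history), against 0.33 over all genes, and the smallest adjusted p of a member was 0.583. A difference between SD and LD history at the entrained peak times in darkness thus did not pass the threshold. The 71 and 21 calls above do not show one. The depth of the wave was not tested apart from its timing, as the fitted peaks lay at 6.00 h after SD and 10.5 h after LD.

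Mean levels over the DD time points seldom differed beyond the spread of the samples. limma called 0 members higher in DD after SD than in DD after LD (0.269% of all genes), and 0 at an unadjusted p below 0.05. It called 1 lower (2.21% of all genes), and 16 were lower at an unadjusted p below 0.05, against 14.2% of all genes. That gene was the HSP20-like chaperone ostta11g02170, with a difference of -1.67 (SE 0.33, limma adjusted p = 0.0101). It had 0 to 6.99 FPKM in DD after SD, against 5.57 to 28.1 FPKM in DD after LD. It passed in neither fit that left out sample 6 or sample 7. The median difference over members was -0.22, against -0.09 over all genes. With the replicate block, 2 members were called lower (4.75% of all genes).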

How the data were processed

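Polyadenylated RNA of 84 libraries was analysed. The authors checked reads with FastQC, mapped them to genome v3.0 with HISAT2 and obtained transcript values through StringTie and Ballgown (versions are not given in the sources used here). The deposited values are FPKM, scaled within each library. LD, SD and LL stand in 1 table and DD in another, and tests stayed within a table. In the DD table, 181 of 182 whole-number values were taken as having lost their decimal point and were divided by 1000. That inference rests on the gene's other values, and 2 of them belong to members.

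limma 3.58.1 (R 4.3.3) was run on log2(FPKM + 1), with trend, on genes averaging at least 1 FPKM, with 24 h cosine and sine terms or with time point and history. This scale understates changes of low genes. p-values were adjusted over all genes (Benjamini-Hochberg, 0.05). The fits were tested on simulated data. The study's rank test for rhythms (RAIN) was not used here. Members and lists were chosen with earlier results of these data known. Named were listed members, the 10 most abundant annotated members outside the lists, the 5 largest called changes per test and direction, listed replication genes outside the module, and genes next to a threshold. Others were chosen after their values were seen.

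Within each DD regime, deviations of same-numbered samples correlated at all 15 pairs of time points (0.176 to 0.728 after SD and 0.277 to 0.822 after LD), and at 0.289 to 0.610 between the histories, so the block fit stands beside a DD result where it moved a count by over 1.5 times. This pairing was seen in the data. The labels give only numbers, and the study's methods describe sampling on consecutive days. Gene neighbours came from RefSeq, which matched all 99 members. Promoter motifs, sequences and strands were not analysed here.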

Additional observations from a re-analysis of the deposited data

How the results depend on the processing

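Each comparison was refitted with pseudocounts of 0.1 and 5 FPKM, without the level filter, with upper-quartile scaling, with a replicate block for the sample numbers, without each sample and, for the peak-time tests, with time as a factor. Fits with any phase, with DD whole numbers as deposited and with crossed LL numbers were chosen after seeing the data. With the replicate block, members called were 10 in LL after LD (1.44% of all genes) and 46 in DD after LD (26.3% of all genes). They were 81 in DD after SD (38.5% of all genes) and, for lower level in DD after SD, 2 (4.75% of all genes). For the difference between DD histories the block gave 0 with limma, and 56 higher at an unadjusted p below 0.05 (14.9% of all genes). Upper-quartile scaling gave 3 for lower level in DD after SD (3.49% of all genes) and shifted the all-gene median in LL after LD to 0.05, against -0.06. The any-phase test called 1 in LL after SD (0.364% of all genes). Leaving out samples gave 0 to 16 in DD after LD, 53 to 81 in DD after SD, 17 to 55 higher and 1 to 11 lower for level in LL, and 0 to 0 for lower level in DD. Each of these fits kept 1 sample per time point, and calls over all genes moved as well. The ranges therefore do not show how stable the module was. Median differences of members in DD after SD were 1.80 without sample 6 (0.52 over all genes) and 2.73 without sample 7 (0.40 over all genes). In DD after LD they were 0.45 without sample 6 (0.09 over all genes) and 1.32 without sample 7 (0.26 over all genes). For level in LL, PCNA reversed to -0.051 without replicate 4 and was 0.87 without replicate 5. Of 443 refitted results of named genes, 405 kept direction and call, 37 lost the call and 1 reversed. LL sample numbers were not taken as pairs, since within LL their deviations correlated above 0.1 at 13 of 15 pairs of time points after SD (-0.0452 to 0.384) and 9 of 15 after LD (-0.200 to 0.588), and between histories at -0.239 to 0.0788. Crossing them gave 59 higher (26.5% of all genes) and 3 lower (19.1% of all genes) for level. Time as a factor called 51 in DD after SD (21.9% of all genes) and 16 in DD after LD (8.06% of all genes).

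Membership held 178 genes at a ratio of 3, 49 at a ratio of 10, and 78 to 150 when samples 1, 2 or 3 were left out. With 2 samples per time point and no read totals, small differences and values near 0 were not resolved.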
